A study of Mus musculus with 9 samples.

Results

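The voltage-gated sodium channel genes Scn1a, Scn3a, Scn4a, Scn10a, Scn2b, Scn3b and Scn4b were followed in mouse ventricles at postnatal day 7. These 7 members were chosen by name among 38293 genes in a table of read counts, and each was found by its Ensembl identifier. The control group held 5 libraries from Arid1a f/f pups, which carry the floxed alleles without Cre. The cKO group held 4 libraries from aMHC-Cre;Arid1a f/f littermates, in which Cre under the αMHC promoter deletes Arid1a in cardiomyocytes, while the other cells of the ventricle keep the gene. Both groups share the floxed alleles and the age, and pups of both sexes were used.

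A voltage-gated sodium channel is a large pore-forming α subunit joined by small β subunits. It opens when the membrane depolarizes and carries the fast inward current that starts the action potential and spreads it from myocyte to myocyte. The α subunits followed here are best known from skeletal muscle (Scn4a), sensory neurons (Scn10a) and brain (Scn1a and Scn3a). The β subunits, among them those encoded by Scn2b, Scn3b and Scn4b, set how the channel gates and how much of it reaches the membrane.

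Library totals ran from 31011055 to 40073801 counts. Arid1a itself was at 140 ± 8.84 CPM (read counts scaled to library size, SD, n = 5) in controls and at 106 ± 5.44 CPM (SD, n = 4) in cKO, with a log2 change of -0.39, an SE of 0.06 and an edgeR adjusted p of 0.00132, and the groups did not overlap. The libraries fell into 2 sets that cut across genotype, by the level of the ribosomal protein gene copy Rps3a3. Control replicates 1 and 2 and cKO replicates 1 to 3 formed the Rps3a3-low set, and control replicates 3 to 5 and cKO replicate 4 formed the Rps3a3-high set. The labels name no batch, so what separates the sets is not known, and values within each set are given where they bear on a member. Of 6 cardiomyocyte markers, all were abundant in every library, with summed levels of 32950 to 39490 CPM in controls and 29381 to 34492 CPM in cKO. Among them 0 were called by edgeR or DESeq2, but 4 had an unadjusted p under 0.05, and Pln, the phospholamban gene, passed without the fold threshold at -0.45 (adjusted p = 0.00875 by edgeR), with no overlap.

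Of the 7 members, 6 had enough counts to be tested and 1, Scn1a, did not. Calls required more than a 1.5-fold difference together with a Benjamini-Hochberg p, adjusted over all tested genes, below 0.05. One α subunit gene was called higher in cKO (Scn4a), another was called lower (Scn10a), and the other 4 tested members were not called. Across all 15318 genes tested, 6.72% were called, with 4.01% higher and 2.72% lower in cKO. The median log2 fold change was -0.37 over the 6 tested members and 0.01 over all genes tested. Ventricle RNA is a mixture of cells, so fewer cells of a type and less RNA per cell cannot be told apart in any of these values.

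**Figure D1:**
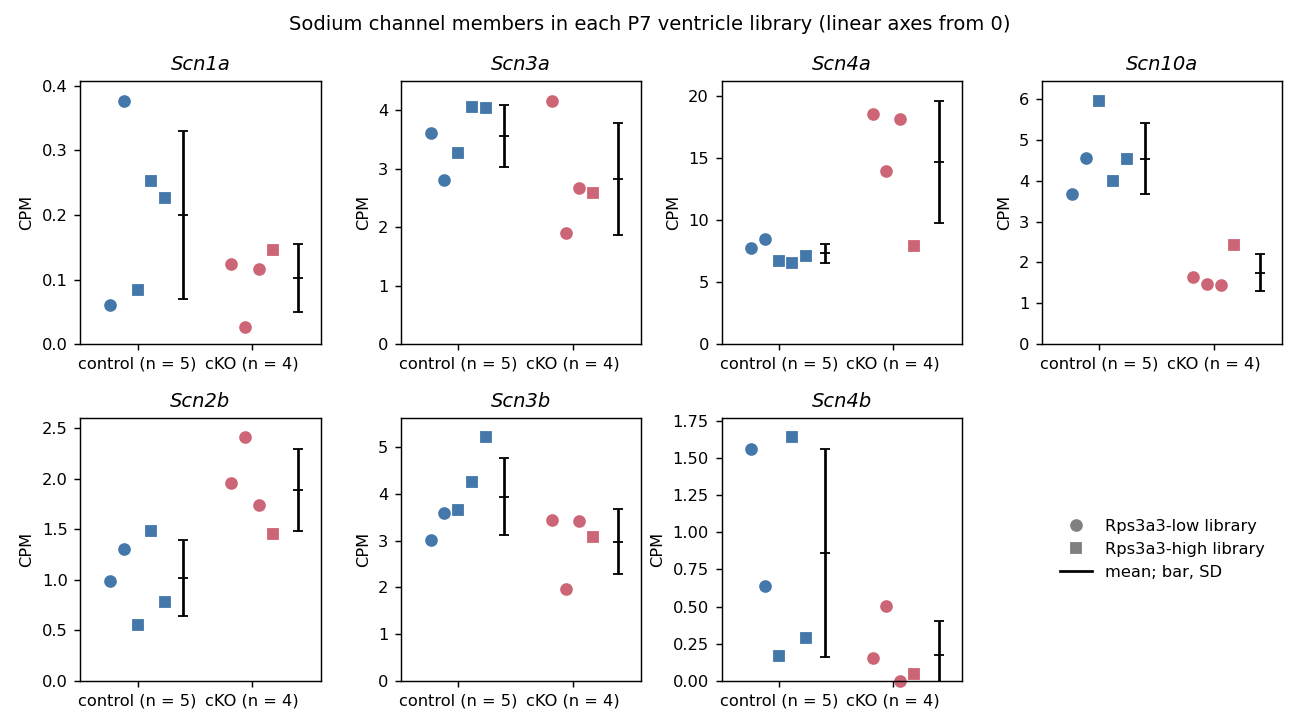
Level of each member in CPM (linear axis from 0) in the 5 control (blue) and 4 cKO (red) libraries, with circles for Rps3a3-low and squares for Rps3a3-high libraries and a black bar for the mean and SD. The 4 cKO libraries lie below all controls for Scn10a (1.45 to 2.42 against 3.67 to 5.96 CPM), and 3 of the 4 lie above all controls for Scn4a.

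Scn4a (ENSMUSG00000001027, GRCm38 chromosome 11, 106318592 to 106353288) encodes the α subunit that carries the action potential of skeletal muscle fibers. Control replicates 1 to 5 read 7.79, 8.46, 6.73, 6.54 and 7.08 CPM, against 18.6, 14.0, 18.2 and 7.94 CPM for cKO replicates 1 to 4. The controls were tight, and cKO replicates 1 to 3 stood above all of them, while cKO replicate 4 fell inside the control range. The control mean was 7.32 ± 0.794 CPM (SD, n = 5), and that of cKO was 14.7 ± 4.96 CPM (SD, n = 4). In edgeR the log2 change came to 1.0 with an SE of 0.21 and an adjusted p of 0.00764. Behind these values stood 208 to 292 counts per control library and 328 to 628 per cKO library. Without cKO replicate 4 the change was 1.21 (adjusted p = 0.00013). In all 18 alternative fits Scn4a stayed called, with log2 fold changes of 0.75 to 1.21 and adjusted p-values of 4.5e-05 to 0.0262.

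The Scn4a difference was also taken within each library set. On the log2(CPM + 0.5) scale cKO exceeded control by 1.01 in the Rps3a3-low set and by 0.21 in the Rps3a3-high set, whose only cKO library is replicate 4. An edgeR interaction of genotype and set came to -0.83 (SE 0.24, unadjusted p = 0.0054, adjusted p = 0.947 over all genes). It rests on that 1 library, which is assumed to vary like the others, so whether the sets differ cannot be told from it.

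Scn10a (ENSMUSG00000034533, chromosome 9, 119608456 to 119719322) encodes an α subunit of pain-sensing neurons, and variation in it is tied to cardiac conduction. Control replicates 1 to 5 held 3.67, 4.55, 5.96, 4.0 and 4.53 CPM, and cKO replicates 1 to 4 held 1.65, 1.48, 1.45 and 2.42 CPM. The highest cKO library lay below the lowest control, so the groups did not overlap. Scn10a was the only member without overlap. Of all tested genes 16.7% had none, made up of 8.16% of all tested genes higher and 8.58% lower in cKO. The control mean was 4.54 ± 0.874 CPM (SD, n = 5) and the cKO mean, 1.75 ± 0.455 CPM (SD, n = 4), was 2.58-fold lower by the fit. The edgeR estimate was -1.37 on the log2 scale with an SE of 0.21 and an adjusted p of 0.000799. The counts were 122 to 215 in controls and 50 to 100 in cKO.

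The Scn10a decrease appeared in both library sets, with differences on the log2(CPM + 0.5) scale of -1.18 where Rps3a3 was low and -0.85 where it was high. It stayed called in all 18 alternative fits, from -1.57 to -1.25, with adjusted p-values of 4.8e-09 to 0.0102. Scn4a and Scn10a thus moved in opposite directions. Per kilobase of exon, Scn4a stood at 1.28 to 2.4 times Scn10a in the control libraries and at 3.71 to 14.2 times in the cKO libraries. This ratio restates the calls of the 2 genes in the same libraries and is not a separate result. The lowest of the cKO ratios came from cKO replicate 4.

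The RefSeq promoter table (GRCm38.p6) held windows for 5 of the 7 members and none for Scn3a and Scn3b. The 250 bases upstream of each start were searched on both strands for GGAATG (the TEAD core, bound by the partners of YAP), the palindromic MEF2 site, AGGTGT (the T-box core) and CAGCTG (an E-box). Of the 250 bases, GENCODE exons covered 3 for Scn1a, 94 for Scn2b, 229 for Scn4b, 250 for Scn10a and 186 for Scn4a, whose window lies inside the annotated gene. In the windows of Scn1a, Scn4a, Scn2b and Scn4b 0 of the 4 motifs were found, and in that of Scn10a only GGAATG was, once, at bases 73 to 68 before the start. The stretch around it is shown because Scn10a was the member with the largest called change, with the match in capitals, at chr9:119719088-119719117, read 5′ to 3′ on the minus strand. GENCODE places these bases in the first exon of a longer transcript.
Scn10a: tgacgggaaatgGGAATGgcacccacgaag

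Of all 32851 RefSeq windows of this length, 12.6% held GGAATG, 3.20% the MEF2 site, 11.8% AGGTGT and 13.0% CAGCTG. A match is only a match of letters and was not tested for binding.

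Scn3a (ENSMUSG00000057182, chromosome 2, 65457118 to 65567627) encodes an α subunit of the embryonic brain. The 5 controls read 3.61, 2.81, 3.27, 4.06 and 4.04 CPM in replicate order, against 4.17, 1.91, 2.67 and 2.59 CPM for the 4 cKO libraries. The highest of the 9 values was a cKO library, and 3 cKO libraries lay below all controls. With edgeR the log2 change was -0.33, its SE 0.22 and its adjusted p 0.339, so it did not pass. Without cKO replicate 1 it was -0.57 (adjusted p = 0.0625), and over all alternatives the adjusted p ran from 0.0625 to 0.883. An annotated antisense gene inside Scn3a, Gm13595, had 0 counts in every library.

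Scn1a (ENSMUSG00000064329, chromosome 2, 66270778 to 66440840), the α subunit of inhibitory neurons of the brain, was near the limit of detection. Control replicates 1 to 5 had 2, 13, 3, 8 and 7 counts and cKO replicates 1 to 4 had 4, 1, 4 and 6, all below 0.4 CPM. For scale, 3 counts came to 0.0726 to 0.0970 CPM in these libraries. The groups overlapped, and with no filter on low counts the log2 fold change was -0.93 with an adjusted p of 0.431 by edgeR (0.445 by DESeq2). No difference in Scn1a was detectable at this depth.

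Among the β subunits, Scn2b (ENSMUSG00000070304, chromosome 9, 45117782 to 45130070) encodes one that is bound to the pore by a disulfide bridge. Among controls it read 0.993, 1.30, 0.554, 1.48 and 0.776 CPM in replicate order, and among cKO libraries 1.96, 2.41, 1.74 and 1.45 CPM. Only cKO replicate 4 reached into the control range, by a narrow margin below control replicate 4. The mean was 1.02 ± 0.377 CPM (SD, n = 5) in controls and 1.89 ± 0.405 CPM (SD, n = 4) in cKO. The log2 fold change of 0.89 (SE 0.28) just missed the threshold, with an adjusted p of 0.0507 by edgeR. Of 18 alternatives 5 passed, with adjusted p-values over all of them of 0.0211 to 0.163. The counts behind it were 20 to 47 in controls and 60 to 91 in cKO.

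Scn4b (ENSMUSG00000046480, chromosome 9, 45138395 to 45154152) encodes the other disulfide-bound β subunit and lies 8.32 kb downstream of Scn2b on the same strand. It had 52, 22, 6, 52 and 9 counts in control replicates 1 to 5, or 1.56, 0.637, 0.166, 1.64 and 0.291 CPM. In cKO replicates 1 to 4 it had 5, 19, 0 and 2 counts, or 0.156, 0.504, 0 and 0.0484 CPM. The count of 0 in cKO replicate 3 allows a level of up to 0.0869 CPM, from counting error alone. The controls alone ran from 0.166 to 1.64 CPM, and 2 of them lay within the cKO range. The edgeR log2 change of -2.24 had an SE of 0.91 and an adjusted p of 0.127, and did not pass.

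For Scn4b the outcome depended on the test and on single libraries. DESeq2 gave -2.28 with an adjusted p of 0.039, and edgeR without cKO replicate 2 gave -3.64 with 0.0465, while the adjusted p over all alternatives ran from 0.039 to 0.255. Without control replicate 2 the gene no longer had enough counts to be tested, and the same held under a filter at a mean of 1 CPM. Within the library sets the differences on the log2(CPM + 0.5) scale were -1.15 and -0.92. Scn2b and Scn4b had fitted changes of opposite sign, and neither passed.

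Scn3b (ENSMUSG00000049281, chromosome 9, 40269217 to 40291618) encodes a β subunit that is not covalently bound to the pore. Its control values were 3.01, 3.59, 3.66, 4.25 and 5.21 CPM and its cKO values 3.45, 1.96, 3.42 and 3.07 CPM. Control replicates 2 to 5 lay above every cKO library, while control replicate 1 fell within the cKO range and below 3 of the 4 cKO libraries. Its edgeR log2 change of -0.41 had an SE of 0.21 and an adjusted p of 0.216 (unadjusted 0.0740), and of 18 alternatives, DESeq2 among them, 0 passed, with adjusted p-values of 0.137 to 0.828.

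The 3 β subunit members were also summed. The sum, in CPM per kilobase of exon, was 1.11 ± 0.217 (SD, n = 5) in controls and 0.987 ± 0.0820 (SD, n = 4) in cKO, with overlap. Scn2b made up 19.8%, 26.3%, 14.5%, 22.3% and 14.1% of the sum in the controls, and 38.8%, 53.0%, 37.4% and 35.3% in the cKO libraries, in replicate order. Every cKO share of Scn2b was above every control share, though the Scn2b level itself overlapped and did not pass (adjusted p = 0.0507 by edgeR). Of single tested genes 16.7% had no overlap, and no such rate was taken for shares. The Scn3b share was 51.1% to 81.5% in controls and 36.7% to 63.6% in cKO, and that of Scn4b 4.06% to 29.1% against 0% to 10.3%, both with overlap. Shares of a sum depend on each other and were not tested.

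**Figure D2:**
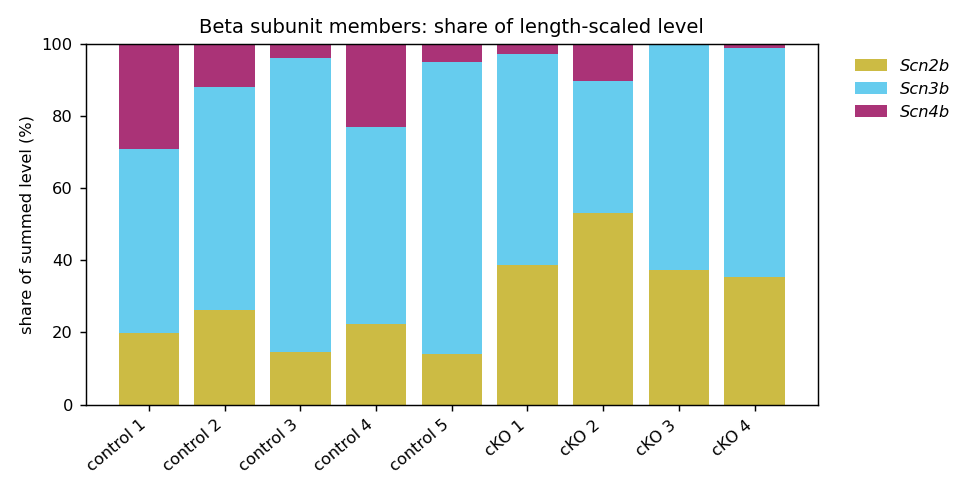
Stacked share (%) of Scn2b (yellow), Scn3b (blue) and Scn4b (purple) in their summed CPM per kilobase of exon, 1 bar per library. The yellow Scn2b part is 14.1% to 26.3% in the 5 controls and 35.3% to 53.0% in the 4 cKO libraries.

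A list of 5 other sodium channel genes gives the setting for these members. Of this list 3 genes were tested, 0 were called, and 0 had an unadjusted p under 0.05 in edgeR. DESeq2 likewise called 0. Scn2a, an α subunit of the brain, changed by 0.27 (SE 0.30, adjusted p = 0.592 by edgeR). Scn7a, the sodium-sensing relative, was at -0.17 (SE 0.12, adjusted p = 0.393) and Scn8a at 0.12 (SE 0.44, adjusted p = 0.882). Scn11a was too low to be tested, with 2 to 14 counts in controls and 0 to 4 in cKO. With no filter on low counts its log2 change was -1.96 with an adjusted p of 0.117 by edgeR, and DESeq2 gave -2.03 with 0.0894. Scn9a had 0 counts in all 9 libraries.

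Levels between genes were compared as CPM per kilobase of merged exons. Of the genes compared, Scn7a stood at 3.26 in controls, above every member. The members followed, with Scn4a at 1.04, Scn3b at 0.722, Scn10a at 0.570, Scn3a at 0.286, Scn2b at 0.219, Scn4b at 0.172 and Scn1a at 0.0179. Among members next to each other in this order only Scn10a and Scn3a had ranges that did not overlap. The ranges of Scn4a and Scn3b, Scn3b and Scn10a, Scn3a and Scn2b, and Scn2b and Scn4b overlapped.

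In cKO the order of the members was different. Scn4a stood at 2.09 and no longer overlapped with Scn3b at 0.545, and Scn2b at 0.406 came next. Scn3a at 0.227 and Scn10a at 0.220 had overlapping ranges here, unlike in controls. Scn4b at 0.0355 and Scn1a at 0.00924 were again lowest among the members.

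**Figure D3:**
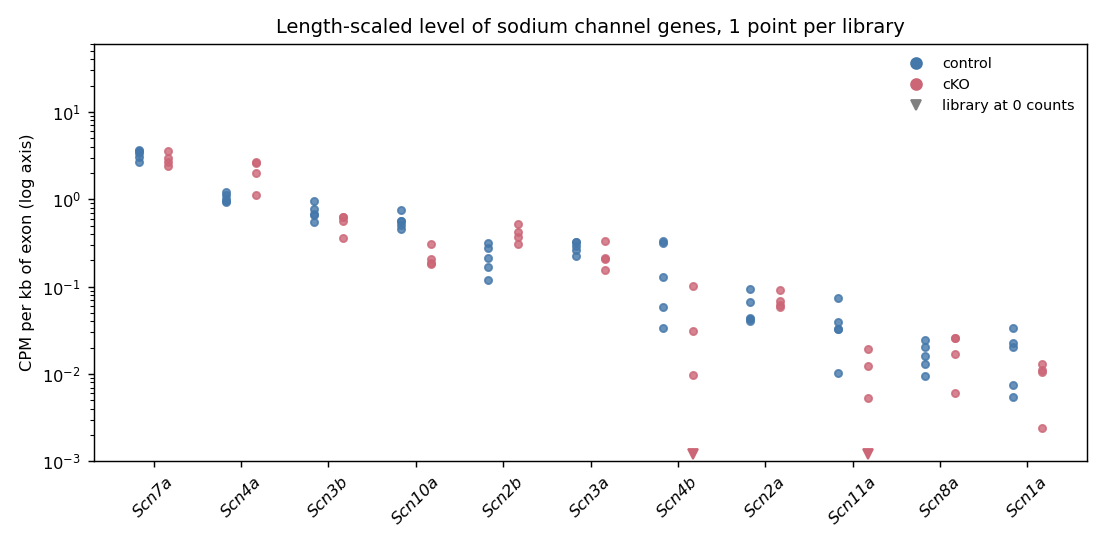
CPM per kilobase of exon (log axis) of 11 sodium channel genes, ordered by the mean over the 9 libraries, with 1 point per control (blue) or cKO (red) library and triangles for libraries at 0 counts. Scn4a lies at 0.929 to 1.20 in controls and 1.13 to 2.65 in cKO, and Scn10a at 0.461 to 0.748 and 0.182 to 0.304.

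A list of 18 genes whose proteins bind, anchor or regulate cardiac sodium channels was compared as well, and all 18 were tested. At an adjusted p under 0.05 1 was higher and 6 were lower in cKO, where 8.25% and 8.03% of all tested genes were. Of these, 1 was called higher and 1 lower. The median log2 fold change of the list was -0.10, against 0.01 over all genes.

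Fgf13, a fibroblast growth factor homologous factor that binds the channel's tail and shapes its inactivation, was the partner called lower. The controls read 81.4, 92.5, 95.1, 90.7 and 86.7 CPM and the cKO libraries 63.0, 47.3, 56.1 and 41.9 CPM, with no overlap. Its edgeR log2 change was -0.78, with an SE of 0.11 and an adjusted p of 0.000474, and it stayed called in all 18 alternatives. The related genes Fgf11, Fgf12 and Fgf14 changed by 0.31, 0.29 and -0.39 and did not pass, with adjusted p-values of 0.230, 0.670 and 0.192.

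Rangrf, which encodes MOG1, a factor that helps sodium channels reach the membrane, was the partner called higher. Control replicates 1 to 5 held 11.5, 10.3, 11.2, 10.2 and 9.18 CPM and cKO replicates 1 to 4 held 14.4, 20.4, 15.4 and 18 CPM, with no overlap. In edgeR the log2 change was 0.70, with an SE of 0.12 and an adjusted p of 0.0015. It passed in 17 of 18 alternatives, with adjusted p-values of 6.4e-07 to 0.101, and in the 5 Rps3a3-low libraries alone it was at 0.62 (adjusted p = 0.101).

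The other 5 partners that passed were lower by less than 1.5-fold. Gpd1l, an enzyme-like regulator of channel trafficking, stood at 76.6 to 79.8 CPM in controls and 55.6 to 58.5 CPM in cKO, a change of -0.46 (SE 0.05, adjusted p = 0.000124 by edgeR). The kinase gene Camk2d changed by -0.40 (SE 0.07, adjusted p = 0.00147). The ankyrin genes Ank2 and Ank3 were at -0.25 (adjusted p = 0.0229) and -0.27 (adjusted p = 0.0475), and the scaffold gene Dlg1 was at -0.22 (adjusted p = 0.0475). The remaining 11 did not pass, among them Cav3 at -0.25 and Pkp2 at 0.20.

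**Figure D4:**
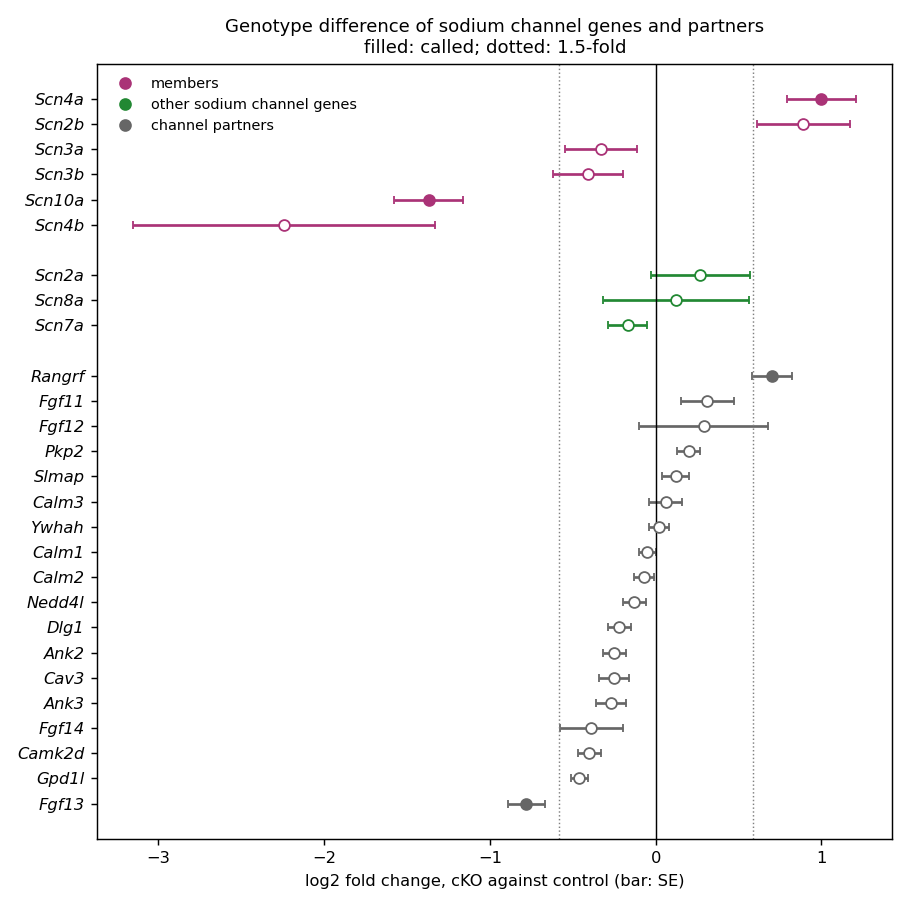
Log2 fold change of cKO against control with its SE for the 6 tested members (purple), 3 other sodium channel genes (green) and 18 partners (grey), filled where called, with dotted lines at 1.5-fold. Scn4a at 1.0 and Scn10a at -1.37 are the filled members, and Rangrf at 0.70 and Fgf13 at -0.78 the filled partners.

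Neighboring tested protein-coding genes were examined. Upstream of Scn10a the nearest tested gene, Wdr48, was 176 kb away and changed by -0.09 (adjusted p = 0.320 by edgeR). Scn11a lies between them, 34.4 kb from Scn10a, and was too low to be tested. Next to Scn4a, Cd79b at 3.83 kb changed by -0.06 (adjusted p = 0.898) and Prr29 at 12.2 kb by 0.62 (adjusted p = 0.110), so neither neighbor of the called α subunit passed.

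Beside Scn3b, which did not pass, Gramd1b (chromosome 9, 40293233 to 40531383), a gene of sterol transport, lies 1.61 kb away on the other strand with its end toward that of Scn3b. Controls averaged 38.4 ± 4.15 CPM (SD, n = 5), and cKO libraries averaged 12.6 ± 2.26 CPM (SD, n = 4). That gene was called lower, at -1.60 on the log2 scale with an SE of 0.13 and an adjusted p of 6.2e-06 by edgeR. How the strand was treated in counting is not given in the sources used here, so reads past the end of either gene could be counted for the other. The other neighbors given here did not pass, namely Zfp202 at -0.18 beside Scn3b, Mpzl3 at 0.45 and Il10ra at 0.49 beside the pair Scn2b and Scn4b, and Slc38a11 at -0.06, Scn2a, Ttc21b at -0.01 and Scn7a beside Scn3a and Scn1a. Their adjusted p-values were 0.173 to 0.931.

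The genes whose log2(CPM + 0.5) followed a member most closely over the 9 libraries were taken as a description. Only tested genes with an informative symbol were ranked, leaving out placeholder names such as Gm or Rik. For Scn4a they were Wnt9b (Pearson r 0.964) and Hrc (0.961), and for Scn10a Srrm1 (0.976) and Fam69a (0.975). Scn2b was followed by Epop (0.977) and Ptgir (0.966), Scn3b by Psd3 (0.983) and Zmym2 (0.975), Scn3a by Svip (0.963) and Ccdc50 (0.955), and Scn4b by Ppm1f (0.940) and Adrb1 (0.913). These are the highest values among the genes so named, out of 15318 tested. They rest on 9 libraries that share the genotype difference and the library sets.

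Among the members themselves, Scn4a and Scn10a had an r of -0.89 over the 9 libraries, and -0.65 after each group's mean was removed. Scn10a and Scn2b had -0.87 and -0.69. Scn2b and Scn4b had -0.06 and 0.80, so within the groups the libraries with more of one had more of the other. Scn3a and Scn3b had 0.78 and 0.69. Scn4a and Scn2b had 0.74 and 0.32, and Scn10a and Scn4b had 0.38 and -0.67. These pairs were picked with their values in view, and the remaining pairs of tested members are not given. Each r rests on 9 libraries and is given without a test.

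Several members are known from other cells than working myocytes, so marker genes of those cells were measured. Of 10 skeletal muscle markers 3 were tested and 0 were called by edgeR, while DESeq2 called 1 higher (Tnni2). In edgeR 3 had an unadjusted p under 0.05, with Tnnt3 at 0.62 (adjusted p = 0.0529), Tnni2 at 0.80 (adjusted p = 0.079) and Mylpf at 0.75 (adjusted p = 0.0705). Summed over all 10, the level was 2.61 to 5.21 CPM in controls and 5.91 to 7.56 CPM in cKO. The groups did not overlap for Tnnt3 and Mylpf. Myl1, a myosin light chain gene of fast skeletal muscle that was listed here with the atrial markers, was called higher at 1.28 (adjusted p = 0.0484 by edgeR) and by DESeq2 too. Of the factors that define the lineage, Myod1 had 0 counts in all libraries, while Myog, too low to be tested, had 5, 5, 3 and 3 counts in cKO replicates 1 to 4 and 0 or 1 in each control, again with no overlap. Transcripts of the fast fiber myosins Myh1, Myh2 and Myh4 were below 0.6 CPM in every library. The part of these markers in the Scn4a difference was not tested.

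Of 10 markers of the conduction system, 8 were tested and 2 were called lower, Hcn4 at -3.11 and Cntn2, a Purkinje fiber gene, at -1.83 (adjusted p = 5.1e-05 and 0.00381 by edgeR). Tbx3 also passed, at -0.44 (adjusted p = 0.0473), while Gja5 at -0.02 and Irx3 at 0.07 did not. The summed level was 152 to 199 CPM in controls and 121 to 159 CPM in cKO. Hcn4, Cntn2 and Tbx3 were thus lower beside Scn10a, while the other 5 tested markers did not pass. Most of the sum was Cacna1g, at 89.4 to 137 CPM in controls and 73.4 to 104 CPM in cKO (-0.41, adjusted p = 0.0616 by edgeR), so Hcn4 and Cntn2 had little weight in it. The part of these markers in the Scn10a decrease was not tested.

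Of 9 neuronal markers 4 were tested and 1 was called, Dbh, higher at 0.61 (adjusted p = 0.0258). An unadjusted p under 0.05 was found for 2, Dbh and Tubb3, the latter at 0.86 (adjusted p = 0.12). Chrna3, which defines autonomic neurons, had 0 counts in all libraries, and Th had 1 count in 1 library. The summed neuronal level was 13.4 to 16.1 CPM in controls and 15.1 to 20.2 CPM in cKO, with overlap. The part of neurons in the Scn10a decrease was not tested. All 6 Schwann cell markers were tested and 0 were called or had an unadjusted p under 0.05, with sums of 12.9 to 19.1 and 8.11 to 16.7 CPM. Of 6 atrial markers 2 were called higher, Myl7 at 1.20 and Myl1 at 1.28, and 1 lower, Stard10 at -1.44, while Dkk3 at 0.31 (adjusted p = 0.0379) passed without the fold threshold, with sums of 114 to 207 and 203 to 264 CPM. The 4 endothelial markers had 0 calls, 0 with an unadjusted p under 0.05, and sums of 1208 to 1323 and 1191 to 1286 CPM. The 4 fibroblast markers also had 0 calls, but Col1a1 at 0.52 (adjusted p = 0.0346) and Tcf21 at 0.48 (adjusted p = 0.0182) passed without the fold threshold, and the sums were 1554 to 1993 and 2006 to 2500 CPM. DESeq2 called 0 in the Schwann cell, endothelial and fibroblast lists too.

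**Figure D5:**
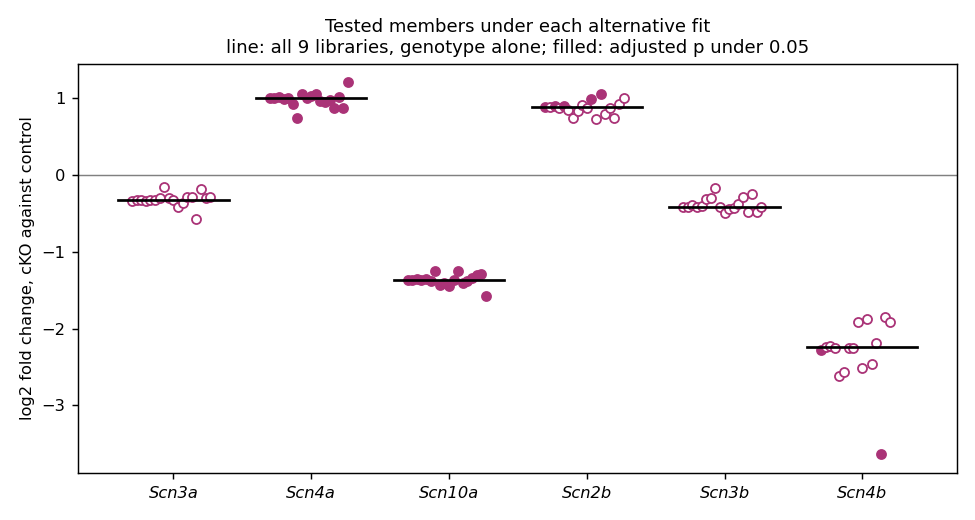
Log2 fold change of the 6 tested members under each alternative fit (points, filled at an adjusted p under 0.05), with a line for the fit to all 9 libraries with genotype alone. All points of Scn4a (0.75 to 1.21) and Scn10a (-1.57 to -1.25) are filled, 5 of 18 are for Scn2b, 2 of 16 for Scn4b, and 0 of 18 for Scn3a and Scn3b.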

How the data were processed

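Poly(A) RNA of P7 ventricles was sequenced by the authors from stranded libraries, and the deposited values are raw read counts per Ensembl gene, not normalized, mapped to mm10. The submitters' processing notes name STAR 2.4.2a and HTSeq 0.6.1. The annotation and strand setting are not given in the sources used here. The table held 0 other sample columns. Symbols, positions and merged exon lengths came from GENCODE M21 on GRCm38, the assembly of mm10, where 36429 of 38293 identifiers were found (99.82% of counts).

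Differences were tested by quasi-likelihood in edgeR 4.0.16 in R 4.3.3 (filterByExpr, minimum count 10, TMM, genotype alone, two-sided, Benjamini-Hochberg over 15318 genes). The study used DESeq2 with the same thresholds, and DESeq2 1.42.0 was an alternative. CPM uses the TMM-scaled totals of the tested genes. SEs come from the F statistic. Library sets were split at 10 CPM of Rps3a3. Intervals and floors cover counting error only, and the libraries of a group were taken as biological replicates, as the study describes its replicates. The fits were tested on simulated data.

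All libraries labelled as controls were used, although the study's methods and a legend differ on their number. The members and lists were chosen with earlier results of these data known. Named genes were all members, the listed other sodium channel genes, called partners and markers, the nearest tested neighbors and the 2 genes most correlated with each member. Any other partner or marker was picked with its value in view. Some genes of these lists are not reported here. Alternatives were DESeq2, RLE and upper-quartile scaling, no filter, a filter at 1 CPM, the replicate block, the library set as a term, the Rps3a3-low libraries alone, Xist level and leaving out each library.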

Additional observations from a re-analysis of the deposited data

How the results depend on the processing

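The calls of Scn4a and Scn10a held in all 18 alternative fits. The number of members called was 2, and 4 under DESeq2, which added Scn2b (adjusted p = 0.0211) and Scn4b (adjusted p = 0.039); it was 2 to 3 when a library was left out. Scn2b was also called with upper-quartile scaling, with a filter at a mean of 1 CPM and without control replicate 2 or 4. The number of partners called went from 2 to 1 in the 5 Rps3a3-low libraries, where Rangrf did not pass. Over all genes 1030 were called, 620 in those 5 libraries and 2493 without the fold threshold, and 909 to 1171 with a library left out. The direction of Scn7a, which was not past the threshold, turned in the Rps3a3-low libraries (0.06), as did that of Scn8a without control replicate 1 (-0.02), cKO replicate 1 (-0.07) or cKO replicate 3 (-0.08), while Scn8a reached 0.43 with another library left out and 1.0 in the Rps3a3-low libraries, without passing; the cause was not tested. Same-numbered libraries correlated at -0.052 to 0.302 in their deviations from the group means, and 1 of 8 was closest to its own number. These values show no pairing by number but cannot exclude one, as the labels name no litter. With the replicate block 888 genes were called, and Scn4a (0.93) and Scn10a (-1.38) remained called. Scn1a, Scn8a and Scn11a had at most 14 counts in a library, and Scn4b had 6 to 52 counts in controls and 0 to 19 in cKO.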
